A study of Saccharomyces cerevisiae with 24 samples.

Results

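SNZ1 (YMR096W) and SNO1 (YMR095C) are 2 neighbouring budding yeast genes of vitamin B6 synthesis, taken by their systematic names from the 5912 genes listed in each library. RNA sequencing covered haploid BY4741 MATa cells grown in rich medium (YPD). The strains were gcn2Δ::KAN, gcn4Δ::KAN, mbf1Δ::NAT and the undeleted BY4741 wild type (wt). Each strain either received the DNA alkylating agent methyl methanesulfonate (MMS) at 0.1% for 1 h or was left untreated, with 3 biological replicates in each of the 8 groups and 24 libraries in all. MMS was given at a single dose and for a single time. The series asks how the response to MMS depends on genotype.

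Pyridoxal 5'-phosphate, the active form of vitamin B6, is the cofactor of aminotransferases and of many other enzymes of amino acid metabolism. Yeast makes it with a synthase in which Snz proteins form the pyridoxal ring and Sno proteins act as the glutaminase that supplies ammonia from glutamine. SNZ1 and SNO1 are known targets of general amino acid control, the pathway in which the kinase Gcn2 phosphorylates the translation factor eIF2, translation of the transcription factor Gcn4 rises, and Gcn4 activates amino acid genes by binding sites with the core TGACTC. Mbf1 is a coactivator of Gcn4.

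In the R64 build SNO1 lies on the minus strand of chromosome XIII from 457285 to 457959, and SNZ1 on the plus strand from 458408 to 459301. Both coding sequences are uninterrupted, and the start codons face each other across a gap of 448 bases with 38.8% G and C. TGACTC, searched on both strands, occurs 3 times in that gap, each time on the plus strand. The first 2 copies are followed by A and so match the longer core TGACTCA, which contains the shorter one. The stretch that holds all of them is printed because it lies between the starts of both genes. Capitals mark the 3 TGACTC copies and, after them, the single TATAA match.
SNO1-SNZ1 gap, chrXIII:458083-458321, plus strand: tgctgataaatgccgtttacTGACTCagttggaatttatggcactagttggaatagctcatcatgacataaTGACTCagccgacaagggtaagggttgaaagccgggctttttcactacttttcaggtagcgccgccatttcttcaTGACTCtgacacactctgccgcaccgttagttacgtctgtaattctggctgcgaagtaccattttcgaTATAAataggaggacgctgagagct
The copies begin 144, 195 and 270 bases upstream of the SNO1 start codon. Their last bases lie 300, 249 and 174 bases upstream of the SNZ1 start codon, and the last base of TATAA lies 107 bases upstream of it.

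**Figure D1:**
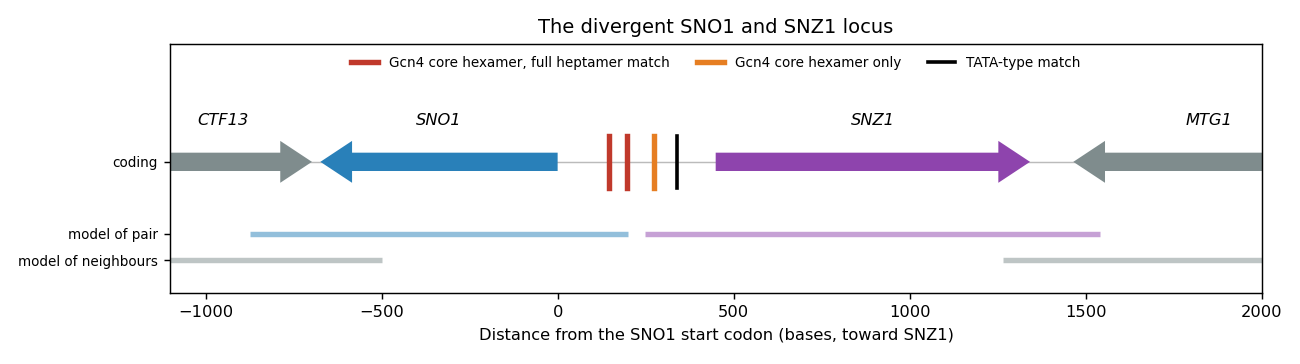
Map of the SNO1 and SNZ1 locus, with distance from the SNO1 start codon in bases on the x axis. Arrows are coding sequences, bars below them are the quantified gene models with 200 flanking bases assumed on each side, and vertical marks show the 3 TGACTC copies (2 of them followed by A) and the TATAA match in the 448-base gap.

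Of 6019 windows of 448 bases upstream of coding starts, 11.3% hold TGACTC on either strand, 0.15% (9 windows) hold it at least 3 times, 3.69% hold TGACTCA, 0.116% (7 windows) hold TGACTCA at least 2 times and 85.2% hold TATAA. SNZ1 and SNO1 share their window and so make up 2 of those 9 and 2 of those 7. The gaps of the paralogous pairs, SNO2-SNZ2 (chromosome XIV, 12877 to 13266) and SNO3-SNZ3 (chromosome VI, 10970 to 11362), contain no TGACTC on either strand and 3 TATAA matches each. A match is a description of the letters and was not tested as a binding site.

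SNZ1 and SNO1 can be counted apart from their paralogs. The SNZ1 coding sequence has 70.7% identity with SNZ2 and 71.1% with SNZ3, SNO1 has 59.5% with SNO2 and with SNO3, and none of the 31-base words of SNZ1 or SNO1 occurs in them. SNZ2 and SNZ3 have 99.3% identity with each other and SNO2 and SNO3 have 99.7%, so values of those 4 genes are uncertain.

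Their neighbours are closer. The deposited length exceeds the coding length by 400 bases for both genes, and with 200 bases on each side the SNO1 model would share 377 bases, 35.1% of its length, with that of the convergent neighbour CTF13, a kinetochore gene, and the SNZ1 model would share 278 bases, 21.5% of its length, with that of MTG1, a mitochondrial GTPase gene. No strand setting is given in the sources used here, so reads of these overlaps cannot be told apart by strand.

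Total counts ranged from 13518115 to 28366473 per library. Rounded counts ranged from 141 to 2977 for SNZ1 and from 78 to 534 for SNO1. The exact Poisson 95% interval of the lowest count was 119 to 166 for SNZ1 and 61.7 to 97.3 for SNO1, which covers counting error only. Each deleted gene was depleted in its strain: untreated, log2 differences from wt were -6.91 for GCN2 in gcn2Δ, -5.12 for GCN4 in gcn4Δ and -6.75 for MBF1 in mbf1Δ. MATa genes were present (MFA1, MFA2, STE2 and BAR1 at 57.4 to 3686 TPM, a length-scaled share of transcripts). MF(ALPHA)1 reached at most 1.00 TPM, MF(ALPHA)2 22.6 and STE3 14.4. Among the marker genes listed as deleted in BY4741, URA3 and MET17 were at 0 and LEU2 reached 1.32 TPM. HIS3, listed with them, was not absent, at 48.5 to 223 TPM, and the cause was not tested. The share of counts over ribosomal RNA loci was 0.336% to 1.48% in gcn4Δ libraries and 6.80% to 17.7% in all other libraries. In contrasts of gcn4Δ with another strain, the genotype and this library difference cannot be told apart.

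SNZ1 was raised by MMS in wt and not to that level in any deletion strain. SNZ1 encodes the Snz subunit of the synthase. In MMS-treated wt it had 164, 155 and 163 CPM (library-scaled counts, normalized by TMM, edgeR's trimmed mean of M values), against 14.1, 17.8 and 17.4 CPM in untreated wt. In gcn2Δ it had 17.3, 17.5 and 16.4 CPM after MMS, against 19.0, 17.1 and 18.1 untreated. In gcn4Δ it had 16.5, 17.6 and 15.9 CPM after MMS, against 18.3, 19.2 and 19.9 untreated. The MMS-treated wt libraries stood apart from all other libraries, and the groups of gcn2Δ overlapped while those of gcn4Δ did not. In mbf1Δ it had 20.7, 20.1 and 22.3 CPM after MMS, against 19.7, 18.5 and 15.8 untreated, without overlap. In these bulk samples a change in cells that express the gene and a change in RNA per cell cannot be told apart.

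SNO1 was also highest in MMS-treated wt. SNO1 encodes the glutaminase partner of Snz1. In MMS-treated wt it had 32.7, 27.8 and 29.3 CPM, against 7.80, 8.91 and 8.80 CPM in untreated wt. No other library exceeded 11.3 CPM, so the MMS-treated wt libraries again stood apart. In gcn2Δ it had 8.33, 9.20 and 8.36 CPM after MMS, against 10.2, 11.3 and 8.62 untreated. In gcn4Δ it had 7.89, 7.75 and 7.31 CPM after MMS, against 9.75, 9.26 and 10.2 untreated. In mbf1Δ it had 9.80, 8.45 and 8.25 CPM after MMS, against 10.3, 10.6 and 8.01 untreated. The groups overlapped in gcn2Δ and mbf1Δ, and in gcn4Δ every treated library lay below every untreated one.

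**Figure D2:**
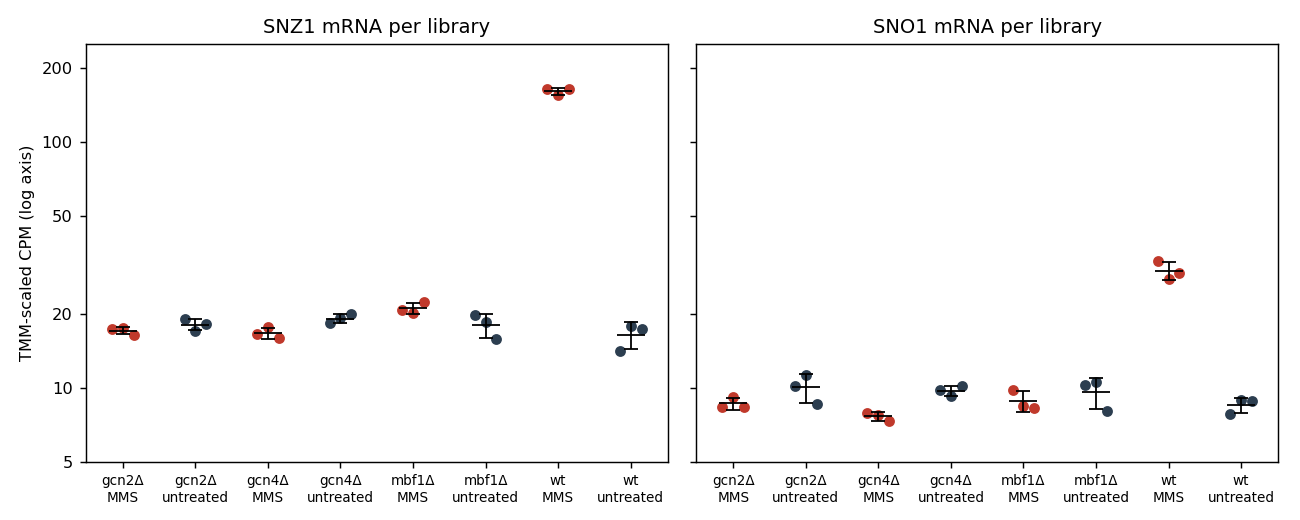
TMM-scaled CPM of SNZ1 (left) and SNO1 (right) on a log axis in the 24 libraries, by strain and treatment. Points are libraries, horizontal bars are means and whiskers are SD (n = 3); the MMS-treated wt libraries, at 155 to 164 CPM for SNZ1 and 27.8 to 32.7 CPM for SNO1, lie above all others.

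Ordered by mean, the SNZ1 groups were MMS-treated wt (161 CPM), MMS-treated mbf1Δ (21.0), untreated gcn4Δ (19.1), untreated gcn2Δ (18.1), untreated mbf1Δ (18.0), MMS-treated gcn2Δ (17.1), MMS-treated gcn4Δ (16.7) and untreated wt (16.4). MMS-treated wt lay far above the next group, the libraries of MMS-treated mbf1Δ (20.1 to 22.3 CPM) and untreated gcn4Δ (18.3 to 19.9 CPM) were close without overlapping, and each group from untreated gcn4Δ downward overlapped the next. For SNO1 the order was MMS-treated wt (29.9 CPM), untreated gcn2Δ (10.0), untreated gcn4Δ (9.73), untreated mbf1Δ (9.61), MMS-treated mbf1Δ (8.83), MMS-treated gcn2Δ (8.63), untreated wt (8.50) and MMS-treated gcn4Δ (7.65), and only the first of these groups did not overlap the next.

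In wt SNZ1 rose 9.73-fold on MMS (log2 3.28, SE 0.084, adjusted p = 5.60e-20, edgeR's quasi-likelihood test with Benjamini-Hochberg adjustment). SNO1 rose 3.50-fold (log2 1.81, SE 0.11, adjusted p = 1.10e-12). An adjusted p under 0.05 is a call, and in wt 42% of all 5824 tested genes were called higher and 41.2% lower. In size the SNZ1 rise was the 89th largest of all tested genes and the SNO1 rise the 440th.

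In the deletion strains the log2 responses of both genes to MMS lay between -0.34 and 0.22 after TMM scaling. In gcn2Δ neither was called: SNZ1 had a log2 response of -0.08 (SE 0.082, adjusted p = 0.361) and SNO1 -0.21 (SE 0.11, adjusted p = 0.0965). In gcn4Δ SNZ1 fell by 0.20 (SE 0.081, adjusted p = 0.0277) and SNO1 fell by 0.34 (SE 0.11, adjusted p = 0.00692). In mbf1Δ SNZ1 rose by 0.22 (SE 0.085, adjusted p = 0.0204), and SNO1 had -0.11 (SE 0.12, adjusted p = 0.392). The share of all tested genes called in either direction was 81.7% in gcn2Δ, 83.3% in gcn4Δ and 82.9% in mbf1Δ.

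These small responses depended on scale and on single libraries. By limma on log2(TPM + 1) the median of all genes moved up by 0.555 in gcn2Δ, 0.539 in gcn4Δ, 0.666 in mbf1Δ and 0.552 in wt. By limma on that scale SNZ1 had 0.55 in gcn2Δ and 0.40 in gcn4Δ, so that the sign turned. Both were called higher (adjusted p = 0.00191 and 0.0178). The sign of SNO1 turned too, with 0.31, 0.22 and 0.50 in gcn2Δ, gcn4Δ and mbf1Δ. Of these SNO1 values only that in mbf1Δ was called by limma (adjusted p = 0.00844, against 0.0855 in gcn2Δ and 0.213 in gcn4Δ). The SNZ1 call in gcn4Δ was lost without any of gcn4Δ untreated replicates 2 and 3, gcn4Δ MMS replicates 1 and 3, gcn2Δ MMS replicates 1, 2 and 3, and mbf1Δ MMS replicates 1 and 3, with values of -0.20 to -0.13. It was also lost when genes over ribosomal RNA loci, whose share was lowest in gcn4Δ, were left out (-0.16, adjusted p = 0.0693). The SNZ1 call in mbf1Δ was lost without mbf1Δ untreated replicate 3 (0.14, adjusted p = 0.164) or mbf1Δ MMS replicate 3 (0.18, adjusted p = 0.0728), or in a fit of only the mbf1Δ libraries (0.22, adjusted p = 0.106). The SNO1 call in gcn4Δ was lost without gcn4Δ MMS replicate 3 (-0.27, adjusted p = 0.0524), and SNO1 in gcn2Δ was called without gcn2Δ untreated replicate 3 (-0.31, adjusted p = 0.0224).

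The difference between strains was tested directly as the deletion strain's response minus the wt response (the interaction). SNZ1 had interactions of -3.36 in gcn2Δ (SE 0.12, adjusted p = 7.64e-16), -3.48 in gcn4Δ (SE 0.12, adjusted p = 5.19e-16) and -3.06 in mbf1Δ (SE 0.12, adjusted p = 1.41e-14). SNO1 had -2.01 in gcn2Δ (SE 0.16, adjusted p = 1.93e-09), -2.15 in gcn4Δ (SE 0.16, adjusted p = 4.92e-10) and -1.92 in mbf1Δ (SE 0.17, adjusted p = 9.12e-09). Of all tested genes 17.3%, 16.4% and 12.4% were called lower in the gcn2Δ, gcn4Δ and mbf1Δ interactions, and 18.6%, 18.8% and 11.6% higher. By p SNZ1 ranked 8th, 5th and 5th of all tested genes in that order, and SNO1 ranked 69th, 67th and 63rd. The 3 interactions share the wt libraries.

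**Figure D3:**
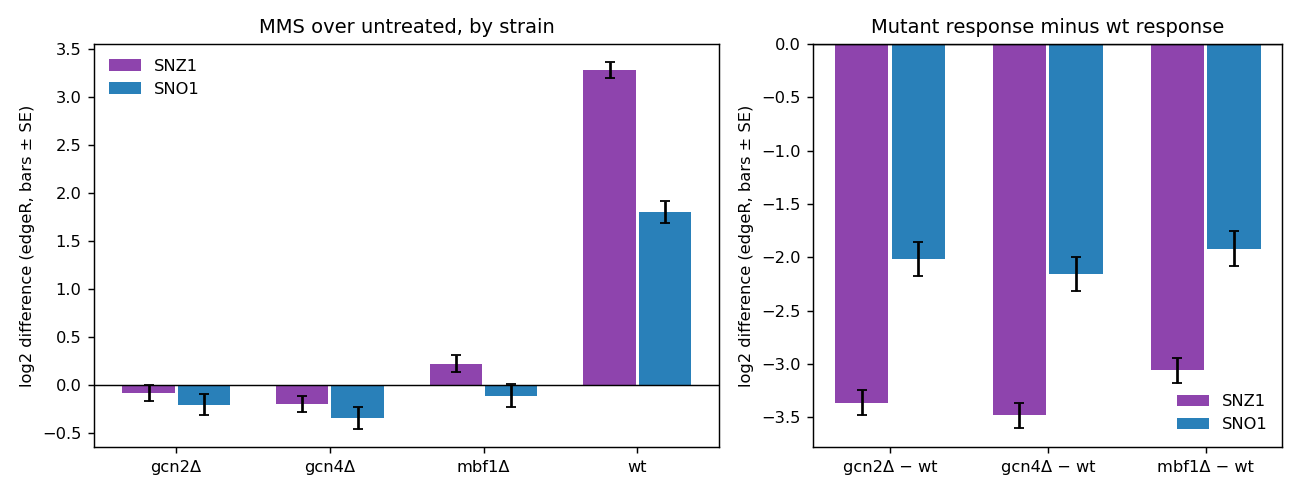
Log2 MMS over untreated in each strain (left) and the deletion strain's response minus the wt response (right) for SNZ1 and SNO1, from the edgeR fit with SE as whiskers. The wt responses reach 3.28 for SNZ1 and 1.81 for SNO1, the deletion strains' responses lie between -0.34 and 0.22, and the interactions lie between -3.48 and -1.92.

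The authors' deposited tables, made with DESeq2, give log2 fold changes for SNZ1 of -3.32 in the gcn2Δ table, -3.48 in the gcn4Δ table and -3.08 in the mbf1Δ table. For SNO1 the authors' deposited tables give -1.92, -2.01 and -1.85 in the same order. From the lowest fold change, SNZ1 stands 11th, 5th and 4th among the 5909 filled rows of the authors' deposited tables for gcn2Δ, gcn4Δ and mbf1Δ.

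The strains differed in the treated libraries. Compared at the treated level, SNZ1 was lower than in wt by a factor of 9.40 in gcn2Δ (log2 -3.23, SE 0.08, adjusted p = 4.87e-19), 9.65 in gcn4Δ (log2 -3.27, SE 0.08, adjusted p = 3.38e-19) and 7.66 in mbf1Δ (log2 -2.94, SE 0.08, adjusted p = 4.44e-18). SNO1 was lower by a factor of 3.46 in gcn2Δ, 3.90 in gcn4Δ and 3.36 in mbf1Δ (log2 -1.79, -1.96 and -1.75, with adjusted p of 4.96e-12, 7.36e-13 and 1.26e-11). Of all tested genes 25.5%, 21.6% and 19.8% were called lower in those comparisons.

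Without MMS neither gene was called in any deletion strain against wt. Untreated SNZ1 differed from wt by 0.13 in gcn2Δ (SE 0.088, adjusted p = 0.33), 0.21 in gcn4Δ (SE 0.087, adjusted p = 0.0906) and 0.12 in mbf1Δ (SE 0.091, adjusted p = 0.999). Untreated SNO1 differed by 0.22 (SE 0.12, adjusted p = 0.232), 0.19 (SE 0.12, adjusted p = 0.266) and 0.17 (SE 0.13, adjusted p = 0.999) in that order. All of these differences were above 0 and none was called. They share the untreated wt libraries, so their common sign is not repeated evidence. With single libraries left out, SNZ1 ranged from 0.040 to 0.19 in gcn2Δ, 0.12 to 0.27 in gcn4Δ and 0.031 to 0.21 in mbf1Δ. The background share of called genes was 0.446% in gcn2Δ, 19.3% in gcn4Δ and 0.172% in mbf1Δ. By TPM the median gene lay 0.329 above wt in gcn2Δ and 0.422 above wt in gcn4Δ, and both genes were called higher in those strains (SNZ1 0.41 and 0.61, SNO1 0.51 and 0.57, by limma).

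Between deletion strains, measured SNZ1 differed slightly after MMS, and the part of reads from the overlap with MTG1 was not tested. Treated mbf1Δ had more SNZ1 than treated gcn2Δ (log2 0.30, SE 0.081, adjusted p = 0.0155, against 13.9% of tested genes called) and more than treated gcn4Δ (0.33, SE 0.080, adjusted p = 0.00144, against 53.7% called). Without gcn2Δ MMS replicate 3 or mbf1Δ MMS replicate 3 the first of these calls was lost (0.25 and 0.24), as it was in a fit of only the strains compared. On TPM both were lost (0.15 and 0.10). The treated gcn2Δ and gcn4Δ levels of SNZ1 differed by 0.04 (SE 0.08, adjusted p = 0.717, against 55.3% of tested genes called). For SNO1 the mbf1Δ minus gcn2Δ, mbf1Δ minus gcn4Δ and gcn2Δ minus gcn4Δ treated levels were 0.04, 0.22 and 0.17 (SE 0.11 each), and none was called.

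As responses, SNZ1 in mbf1Δ was above gcn4Δ by 0.42 (SE 0.12, adjusted p = 0.00677, against 43.9% of tested genes called), and the response differences of mbf1Δ minus gcn2Δ (0.30, SE 0.12, adjusted p = 0.147, against 6.75% of tested genes called) and gcn2Δ minus gcn4Δ (0.12, SE 0.12, adjusted p = 0.452, against 32.8% called) were not called. The mbf1Δ minus gcn4Δ call on SNZ1 was lost on TPM (0.49, adjusted p = 0.0969). SNO1 had 0.09, 0.23 and 0.14 for mbf1Δ minus gcn2Δ, mbf1Δ minus gcn4Δ and gcn2Δ minus gcn4Δ (SE 0.16 each), and none was called.

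The responses of SNZ1 were set beside those of other genes with a large rise in wt. A limit of 8-fold was chosen after values were seen, and 107 genes averaging 50 counts or more rose at least that much in wt. Their median log2 response was 2.85 in gcn2Δ, 3.01 in gcn4Δ and 3.26 in mbf1Δ, against 3.91 in wt. These genes were picked by their wt response in the same libraries, so a higher median in wt comes in part with that choice. SNZ1 had the 5th lowest response of the 107 in gcn2Δ, the 3rd lowest in gcn4Δ and the 2nd lowest in mbf1Δ. The responses compared here use each strain's own untreated libraries.

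The measured ratio of the pair was not fixed. Reads from the overlaps of SNO1 with CTF13 and of SNZ1 with MTG1 may enter it, and their part was not tested. As log2((SNZ1 TPM + 1)/(SNO1 TPM + 1)), a comparison per length, MMS-treated wt libraries had 1.88, 2.07 and 2.02, against 0.29, 0.40 and 0.42 in untreated wt. As plain ratios the wt means correspond to 3.97 after MMS and 1.29 untreated. In gcn2Δ the mean was 0.51 ± 0.071 after MMS and 0.27 ± 0.21 untreated (SD, n = 3 each). In gcn4Δ it was 0.59 ± 0.040 after MMS and 0.41 ± 0.077 untreated. In mbf1Δ it was 0.77 ± 0.15 after MMS and 0.37 ± 0.068 untreated. Treated and untreated libraries overlapped in gcn2Δ only, and all 8 group means lay above 0, so SNZ1 had more TPM than SNO1 in each group.

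Over the 4 strains the ratio was higher after MMS by 0.61 on the log2 scale (p = 2.5e-05 and adjusted p = 0.0001 over 4 ratio tests, two-sided exact permutation of treatment labels within strains). Within a strain the difference was 0.24 in gcn2Δ (exact permutation p = 0.2), 0.18 in gcn4Δ, 0.40 in mbf1Δ and 1.62 in wt (exact permutation p = 0.1 each, the smallest that 3 against 3 allows). Averaged over both treatments, the ratio differed from wt by -0.79 in gcn2Δ, -0.68 in gcn4Δ and -0.61 in mbf1Δ, with adjusted p of 0.0667, 0.08 and 0.0667 by exact permutation of strain labels within treatments, so none passed 0.05. Untreated group means lay between 0.27 and 0.41, and the untreated libraries entered the same test. It therefore cannot decide on a strain difference after MMS alone, and the interaction of the ratio was not tested. On rounded counts in place of TPM the gcn2Δ and mbf1Δ differences passed (-0.77 and -0.61, adjusted p = 0.0467 each). The gcn2Δ difference also passed without wt untreated replicate 1 (-0.81), gcn2Δ untreated replicate 3 (-0.84) or mbf1Δ untreated replicate 3 (-0.79), and the mbf1Δ difference without the first or the last of these (-0.63 each).

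**Figure D4:**
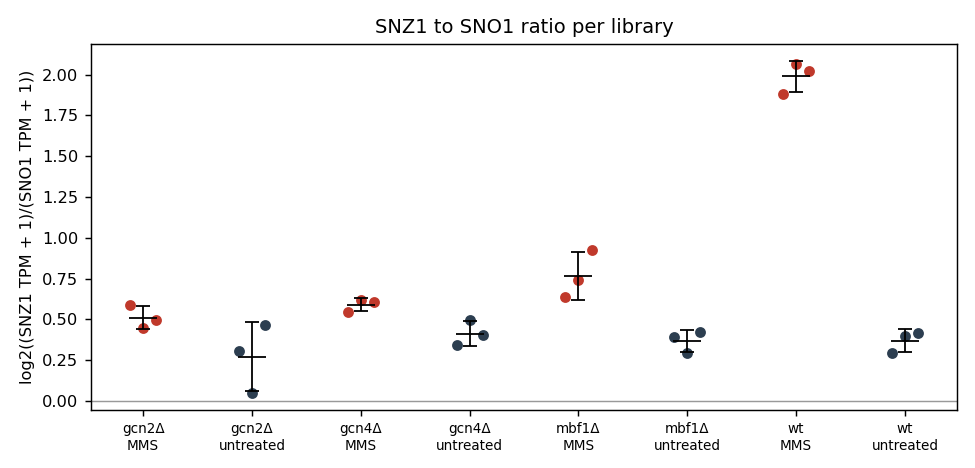
Log2 ratio of SNZ1 to SNO1, each as TPM + 1, in the 24 libraries by strain and treatment. Points are libraries, horizontal bars are means and whiskers are SD (n = 3); MMS-treated wt libraries lie at 1.88 to 2.07 and all others between 0.05 and 0.92.

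Neither flanking gene followed the pattern of the pair. CTF13, convergent with SNO1, averaged 10.2 ± 1.16 CPM in MMS-treated wt and 9.68 ± 1.22 CPM in untreated wt (SD, n = 3 each), a log2 change of 0.06 (SE 0.15, adjusted p = 0.695). It fell by 0.61 in gcn4Δ and by 0.39 in mbf1Δ. Its level is similar to that of SNO1 outside MMS-treated wt. The part of reads from the overlap in the SNO1 values, and so in the SNO1 fold changes and the ratio of the pair, was not tested. MTG1, convergent with SNZ1, rose by 0.93 in wt (SE 0.14, adjusted p = 2.51e-06), by 0.77 in gcn2Δ and by 0.98 in mbf1Δ, with 0.28 in gcn4Δ (adjusted p = 0.0521). The interactions of CTF13 and MTG1 were called lower in gcn4Δ only, with -0.68 (adjusted p = 0.0127) and -0.65 (adjusted p = 0.0115). Between deletion strains, the MTG1 response was higher than in gcn4Δ by 0.70 in mbf1Δ (adjusted p = 0.00586) and by 0.49 in gcn2Δ (adjusted p = 0.0473). No response difference of CTF13 was called (adjusted p of 0.162 to 0.779). The small SNZ1 responses (0.22 in mbf1Δ, -0.08 in gcn2Δ, -0.20 in gcn4Δ) had the same order as those of MTG1. In MMS-treated mbf1Δ MTG1 averaged 24.2 CPM and SNZ1 21.0. Treated MTG1 in mbf1Δ was 0.40 above gcn4Δ but differed from gcn2Δ by -0.07. The part of overlap reads in the SNZ1 values was not tested.

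SNZ1 and SNO1 were close to each other among all genes. Over the 24 libraries, which fall into 8 groups and share their groups' MMS and genotype effects, log2 CPM of the pair had Pearson r = 0.972 as a description. Among 5602 other genes averaging 50 counts or more, SNZ1 was first by likeness to SNO1, and SNO1 was second by likeness to SNZ1. Within the 12 MMS libraries r was 0.992, and within the 12 untreated libraries it was 0.669, where SNO1 ranked 380th by likeness to SNZ1. Spearman's rho over the 24 libraries was 0.673.

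Besides SNO1, the genes most like SNZ1 were SER3 (r = 0.973), which encodes a serine biosynthesis dehydrogenase, MET22 (0.967), a phosphatase of sulfur metabolism, ARO5 (0.961) and YSW1 (0.959), a sporulation gene. Besides SNZ1, those most like SNO1 were ECM13 (r = 0.958), SER3 (0.942), MET22 (0.942) and BNA1 (0.933), an enzyme of NAD synthesis from tryptophan. Each was picked by likeness over the same libraries, in which the pair was highest in MMS-treated wt. A wt rise and negative interactions therefore largely come with the choice of these genes. In wt their log2 responses to MMS were 1.67 for SER3, 1.21 for MET22, 4.40 for ARO5, 2.51 for YSW1, 1.95 for ECM13 and 2.61 for BNA1. Their interactions ranged from -4.05 for ARO5 to -1.27 for MET22 in gcn2Δ, from -4.43 for ARO5 to -1.37 for MET22 in gcn4Δ and from -2.96 for ARO5 to -0.95 for MET22 in mbf1Δ. TGACTC occurs once in the 448-base window upstream of MET22, ARO5 and BNA1, in each case as TGACTCA, and not in that of SER3, YSW1 or ECM13.

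The likeness of the pair was set beside that of other divergent neighbours. Of 1344 divergent neighbour pairs with both genes over the same count minimum, SNO1 and SNZ1 ranked 59th by r, and the median r of these pairs was 0.24, with quartiles of -0.58 and 0.816. Their gap of 448 bases compares with a median of 506. By Spearman's rho the pair ranked 407th and on TPM 75th.

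Among the 10 other vitamin B6 genes, PDX3 had the most negative interaction in each deletion strain. PDX3 encodes the oxidase that makes pyridoxal phosphate from pyridoxine and pyridoxamine phosphates. It averaged 220 ± 5.80 CPM in MMS-treated wt and 78.7 ± 1.88 CPM in untreated wt (SD, n = 3 each), and rose by 1.48 (SE 0.069, adjusted p = 3.02e-15, edgeR). Its interactions were -1.52 in gcn2Δ, -1.34 in gcn4Δ and -1.06 in mbf1Δ (adjusted p of 2.83e-11, 2.29e-10 and 2.06e-08). TGACTC occurs once in the 448-base windows of BUD16 and TPN1 and not in that of PDX3 or of the other vitamin B6 genes outside the pair.

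The uncertain paralogs moved differently from the pair. On MMS in wt SNZ2 rose by 0.38 and SNZ3 by 0.35, SNO2 by 0.82 and SNO3 by 1.62. In gcn2Δ SNZ2 rose by 0.79 and SNO2 by 0.84, and in mbf1Δ SNZ2 rose by 0.70 and SNO3 by 1.44. In gcn4Δ SNO2 rose by 1.55 and SNO3 by 1.91, and SNZ3 had 0.16 (adjusted p = 0.253). Of these 4 genes only SNO2 had a called interaction, 0.73 in gcn4Δ (adjusted p = 0.0300). Their average level in untreated wt was 2.62 to 6.18 TPM, against 11.0 for SNZ1 and 8.24 for SNO1.

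Uptake and salvage genes went both ways. TPN1, the plasma membrane pyridoxine transporter, rose by 1.23 in wt (adjusted p = 6.41e-09), with interactions of -0.56 in gcn2Δ and -0.82 in mbf1Δ called lower and -0.06 in gcn4Δ not called. YPR127W, similar to pyridoxal reductases, rose by 1.37 in wt, with interactions of -0.61, -0.55 and -0.53 in gcn2Δ, gcn4Δ and mbf1Δ. BUD16, a putative pyridoxal kinase gene, fell by 0.38 in wt, with interactions of -0.41, -0.59 and -0.46. YBL036C, which binds pyridoxal phosphate, fell by 1.09 in wt, and BUD17, another putative pyridoxal kinase gene, had -0.11 (adjusted p = 0.274).

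**Figure D5:**
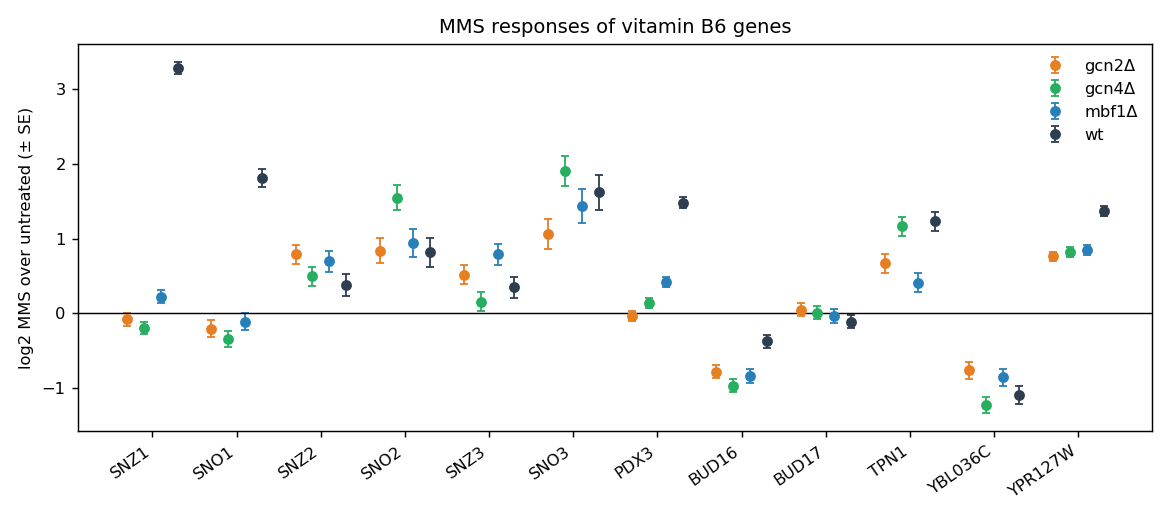
Log2 MMS over untreated for the 12 vitamin B6 genes in each strain, from the edgeR fit with SE as whiskers. SNZ1, SNO1 and PDX3 have wt values of 3.28, 1.81 and 1.48 that stand above those of all 3 deletion strains. YPR127W and BUD16, which fell in every strain, do so by smaller margins, with BUD16 at -0.38 in wt. TPN1 has 1.23 in wt, above gcn2Δ (0.67) and mbf1Δ (0.41) but close to gcn4Δ (1.17). None of SNZ2, SNO2, SNZ3 and SNO3 stands above all 3 deletion strains.

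Without the pair, 7 of the 10 other vitamin B6 genes rose in wt and 2 fell, where 42% of all tested genes rose and 41.2% fell. Their median was 0.598 against 0.0249 over all tested genes. The 7 include the uncertain paralogs SNZ2, SNZ3, SNO2 and SNO3, near-identical in pairs, so they hold fewer than 7 separate measurements. In the interactions 4 of the 10 were lower and 6 not called in gcn2Δ, 3 were lower and 1 higher in gcn4Δ, and 4 were lower and 6 not called in mbf1Δ, with medians of -0.193, -0.0999 and -0.0563, against 0.0349, -0.0123 and 0.0182 over all tested genes. Of all tested genes 17.3%, 16.4% and 12.4% were called lower.

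Thiamine genes, some of which are neighbours of SNZ2 and SNZ3, were also counted. Of 18 such genes 12 rose and 4 fell in wt, where 42% of all tested genes rose and 41.2% fell, with a median of 0.748 against 0.0249 over all tested genes. THI6, a thiamine phosphate enzyme, rose by 1.68, THI72 by 1.32 and THI20 by 0.86, while PHO3, an acid phosphatase, fell by 4.41, the transporter gene THI7 by 0.98 and THI80 by 0.98. In the gcn2Δ interaction 2 were higher (THI7 0.60, PHO3 0.45), and in gcn4Δ 2 were higher (PHO3 0.93, THI7 0.51) and 2 lower (THI6 -0.32, THI20 -0.44). Over all tested genes the gcn2Δ interaction was called higher for 18.6% and lower for 17.3%, that of gcn4Δ for 18.8% and 16.4%, and that of mbf1Δ for 11.6% and 12.4%. The gcn2Δ count was 1 without wt untreated replicate 1, wt MMS replicate 1, wt MMS replicate 2 or gcn2Δ untreated replicate 3. In mbf1Δ edgeR called 0, with 1 at an unadjusted p under 0.05, 0 by DESeq2 and 1 by limma on log2(TPM + 1). THI5, THI11, THI12 and THI13 are near-identical copies and uncertain.

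Enzymes that use pyridoxal phosphate went both ways on MMS in wt: of 40 listed, 39 were tested, of which 18 rose and 17 fell, with a median of 0.0392. Those counts are near the background of 42% higher and 41.2% lower. The hydroxyaspartate dehydratase gene SRY1 rose by 2.92, the cystathionine gamma-synthase gene STR2 by 2.97 and the histidinol-phosphate aminotransferase gene HIS5 by 1.92. The serine hydroxymethyltransferase gene SHM1 fell by 1.95, the cystathionine beta-synthase gene CYS4 fell by 1.89 and the serine deaminase gene CHA1 had a log2 response of -1.85.

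In the interactions of these enzymes, 25 were lower and 2 higher in gcn2Δ, 17 lower and 6 higher in gcn4Δ, and 24 lower with 15 not called in mbf1Δ. Over all tested genes the shares called lower were 17.3%, 16.4% and 12.4%, and those called higher 18.6%, 18.8% and 11.6%. The medians were -0.765, -0.276 and -0.623 against 0.0349, -0.0123 and 0.0182 over all tested genes. HIS5 had -2.32, -2.15 and -1.62, SRY1 -2.18, -2.19 and -1.60, and STR2 -1.95, -2.24 and -1.60 in gcn2Δ, gcn4Δ and mbf1Δ. CYS3, cystathionine gamma-lyase, was higher by 0.71 and 1.22 in gcn2Δ and gcn4Δ, CHA1 by 0.56 and 0.53, and CYS4 by 0.36 in gcn4Δ. Each value lies nearer to 0 than that of SNZ1.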

How the data were processed

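The deposited files used here hold, per library and gene, Salmon's estimated counts, TPM and effective lengths. Per the submitters' processing notes the authors used FastQC 0.11.9, fastp, Salmon 1.10.1 and the R64 build. The authors' deposited tables hold, per the file headers, a mean normalized count (a score, not used in the text), log2 fold changes with errors, and raw and adjusted p-values, made with DESeq2 1.38.3.

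Estimated counts were rounded, and edgeR 4.0.16 (R 4.3.3) was run over all 24 libraries (16 residual degrees of freedom), with TMM scaling and a coefficient per group, for 5824 genes kept by filterByExpr with a minimum count of 10. In all, 19 contrasts were tested, two-sided. SE is implied by edgeR's statistic. Alternatives used DESeq2 1.42.0, limma 3.58.1 on log2(TPM + 1) and log2(TPM + 0.1), RLE factors, no filter, effective-length offsets, fits of only the strains compared, a replicate block and single libraries left out; leaving out genes over ribosomal RNA loci was added after seeing the data. The fit was also run on simulated counts in which few genes changed, in MMS-treated wt only. That run cannot say how the fit behaves where most genes change, as in these data.

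The files' gene names were matched to the R64 reference by systematic name (5909 of 5912). For 5907 genes the deposited length is the coding length plus 400 bases, and an even split was assumed. Likeness used log2 CPM with a prior count of 2. Named genes were the pair, 12 vitamin B6 genes, the flanking genes, the 5 genes nearest to each member, and the 3 thiamine and 3 pyridoxal phosphate genes per direction with the smallest adjusted p in wt and each interaction. The pair and the lists were chosen with earlier results of these data known. The labels call replicates biological. No replicate pair agreed within counting noise (lowest chi-square per degree of freedom 4.33).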

Additional observations from a re-analysis of the deposited data

Results flagged for a closer look

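The MMS responses of SNZ1 and SNO1 differed between strains by edgeR's test of the difference itself. Against wt, SNZ1 had -3.36 in gcn2Δ, -3.48 in gcn4Δ and -3.06 in mbf1Δ, and SNO1 had -2.01, -2.15 and -1.92 (log2). The SNZ1 response in mbf1Δ lay 0.42 above that in gcn4Δ, and the part of reads from the MTG1 overlap was not tested.

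Other vitamin B6 and flanking genes differed from wt by the same test. In gcn2Δ PDX3 had -1.52, BUD16 -0.41, TPN1 -0.56 and YPR127W -0.61. In gcn4Δ PDX3 had -1.34, BUD16 -0.59, YPR127W -0.55, CTF13 -0.68, MTG1 -0.65 and SNO2 0.73. In mbf1Δ PDX3 had -1.06, BUD16 -0.46, TPN1 -0.82 and YPR127W -0.53.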

How the results depend on the processing

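The wt response, the 3 interactions and the 3 treated differences from wt kept their direction and their call for SNZ1 and SNO1 under all 33 alternatives, with ranges of 3.19 to 3.94 and 1.74 to 2.33 for the wt responses. On log2(TPM + 1) and log2(TPM + 0.1), in that order, signs turned for SNZ1 in gcn2Δ (0.55, 0.58) and gcn4Δ (0.40, 0.42), for SNO1 in gcn2Δ (0.31, 0.33), gcn4Δ (0.22, 0.24) and mbf1Δ (0.50, 0.54), for the treated SNO1 level of mbf1Δ minus gcn2Δ (-0.10, -0.11) and minus gcn4Δ (-0.074, -0.081), and for treated SNZ1 of gcn2Δ minus gcn4Δ (-0.050, -0.052). Calls were lost on these scales for the SNZ1 response of mbf1Δ minus gcn4Δ (0.49, 0.52) and treated SNZ1 of mbf1Δ minus gcn2Δ (0.15, 0.16) and minus gcn4Δ (0.10, 0.11), and gained untreated for SNZ1 in gcn2Δ (0.41, 0.44) and gcn4Δ (0.61, 0.65) and SNO1 in gcn2Δ (0.51, 0.55) and gcn4Δ (0.57, 0.62). For the MMS responses, calls were gained on both scales for SNZ1 in gcn2Δ and SNO1 in mbf1Δ. The called fall of SNZ1 in gcn4Δ became a called rise. TPM is a share within each library without TMM scaling, and the median over all genes shifted with it. Effective-length offsets gave SNZ1 0.015 in gcn2Δ. Fits of only the strains compared lost the calls of SNZ1 in mbf1Δ (0.22) and of treated SNZ1 in mbf1Δ minus gcn2Δ (0.30). Without ribosomal RNA-locus genes SNZ1 in gcn4Δ was not called (-0.16). Rounded counts gave ratio differences of -0.77 in gcn2Δ and -0.61 in mbf1Δ, now called. The likeness r was 0.673 by Spearman and 0.669 in untreated libraries. Called thiamine genes in the gcn4Δ interaction numbered 2 on both TPM scales and in mbf1Δ 1 on log2(TPM + 1).

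With single libraries left out, SNZ1 ranged from -0.23 to -0.13 in gcn4Δ and from 0.14 to 0.29 in mbf1Δ, SNO1 from -0.31 to -0.12 in gcn2Δ and from -0.38 to -0.27 in gcn4Δ, the SNO1 response of mbf1Δ minus gcn2Δ from -0.022 to 0.20, treated SNO1 of mbf1Δ minus gcn2Δ from -0.062 to 0.079, treated SNZ1 of gcn2Δ minus gcn4Δ from -0.015 to 0.057 and of mbf1Δ minus gcn2Δ from 0.24 to 0.32. The ratio difference ranged from -0.84 to -0.73 in gcn2Δ and from -0.65 to -0.58 in mbf1Δ, and called thiamine genes in gcn2Δ from 1 to 3. Except where stated the cause was not tested.

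Libraries of different groups share only a replicate number: 15 of 84 same-numbered pairs had deviations correlated over 0.1 (range -0.552 to 0.538). With the replicate number as a block SNZ1 had 3.28 in wt, and no call on SNZ1 or SNO1 changed. Counts of 78 to 534 limit SNO1.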
